A study of Caenorhabditis elegans with 7 samples.

Results

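The mitochondrial respiratory chain and the ATP synthase were followed in embryonic A-class motor neurons of C. elegans. A gene was taken as a member when its symbol begins with nuo, nduf, cox, atp, asb, asg or ucr, or when it is one of a few subunit genes with other names, among them lpd-5, sdha-1, sdhb-1, mev-1, sdhd-1, isp-1, cyc-1 and cyc-2.1, and when the array holds a probe set annotated to that gene alone. This gave 46 members among 17118 genes: 13 of complex I, 4 of complex II, 7 of complex III with cytochrome c, 7 subunits of complex IV, 6 factors that assemble complex IV, and 9 of complex V, the ATP synthase. The rule used names and no measured values, but the members were chosen with earlier results of these data known. Expression was measured on 3 Affymetrix arrays of A-class cells and 4 arrays of reference cells. The A-class cells came from embryos of a strain in which the unc-4 promoter drives GFP. They were dissociated, cultured for 24 hours and sorted by fluorescence to about 90% GFP-positive cells. The unc-4 promoter marks the DA and SAB motor neurons and the pharyngeal neuron I5, so the sorted cells are not a single class. The reference was all viable cells of wild-type (N2) embryos after the same culture, and so also contains neurons. The 2 groups differ in strain as well as in cell type, because only the A-class cells carry the transgene. Each array was hybridized with material amplified in 2 rounds from 100 ng of total RNA, so neither group gives a level per cell. In such bulk samples, fewer cells of a type and less RNA per cell cannot be told apart.

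The respiratory chain passes electrons from NADH (complex I) and succinate (complex II) through ubiquinone to complex III, and from there by cytochrome c to oxygen at complex IV. Complexes I, III and IV pump protons across the inner mitochondrial membrane, and complex V uses the returning protons to make ATP. Most subunits are encoded in the nucleus, and the members are a part of these, together with the 6 factors that assemble complex IV. Another 21 complex I subunits, known by newer names, lie outside the rule. The mitochondrially encoded subunits were looked for by symbol, and 0 had a probe set annotated to them alone. The roles given below are mostly those of the human counterparts of the worm proteins. Several worm mutants of these genes are well known: isp-1 and nuo-6 mutants are long-lived, and mev-1 mutants are sensitive to oxygen.

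Array medians lay between 66.9 and 70.1 intensity units. The coefficient of determination between arrays of a group ranged from 0.938 to 0.969 in the reference and from 0.893 to 0.947 in the A-class group. The label of the sorted cells was checked with marker genes. For unc-4 the A-class arrays read 1289, 1155 and 1386 and the reference arrays 94.5, 92.7, 111 and 90.1. Of the A-class and cholinergic markers 3 of 5 were higher in the A-class cells. The 5 together summed to 2204 to 3048 against 506 to 596. That sum rests in large part on unc-4, whose promoter was used for the sort, with means of 1277 and 97.1. On the log2 scale cha-1 (1.12) and cho-1 (0.44) were above 0 but did not pass the test. Of the markers of all neurons 2 of 6 were higher (6167 to 8119 against 2749 to 4162). Among these unc-119 was at -0.13 on the log2 scale, with overlap, and the others were above 0. Markers of other cells summed lower in the A-class arrays for hypodermis (2062 to 2762 against 3888 to 6689), intestine (702 to 811 against 869 to 1568) and touch neurons (492 to 540 against 1060 to 2422), with 0, 0 and 1 genes that passed the test. The hypodermis sum rests largely on the bright sqt-3, with means of 1224 in the A-class cells and 3341 in the reference. On the log2 scale the hypodermis markers elt-1 (1.05) and rol-6 (0.46) were above 0 and the others below. The intestine markers had a median of -0.15 on the log2 scale, and the markers with the lowest values were ifb-2 (-1.57) and act-5 (-0.999). Against these, the intestine markers end-1 (0.41), ges-1 (0.20) and elt-7 (0.02) were above 0, so the lower sum is not shared by all of them. Body wall muscle markers (805 to 1195 against 960 to 1475), pharyngeal muscle markers (482 to 749 against 648 to 959) and GABA neuron markers (198 to 272 against 258 to 409) overlapped between the groups. The body wall muscle markers did not move together, and none passed the test. For unc-22 (0.92 on the log2 scale) every A-class array lay above every reference array. For myo-3 (-0.67), unc-54 (-0.94), hlh-1 (-0.44) and tni-3 (-1.11) every A-class array lay below every reference array, and unc-15 and lev-11 overlapped. Germ line markers summed to 610 to 1047 in the A-class arrays against 523 to 630, again with overlap. Their median was 0.25 on the log2 scale. For glh-1 (1.20) and glh-2 (0.59) every A-class array lay above every reference array, though neither passed the test, and nos-1 (-0.36) and him-3 (-0.17) were below 0. No marker read 0. The marker sums that do not overlap differ between the same groups as every comparison below, and their part in the results was not tested.

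Of the 46 members, 1 rose in the A-class cells, 4 fell and 41 did not pass the test. A gene was said to rise or fall at an adjusted p under 0.01 in limma where the groups also differed 1.7-fold or more. The gene that rose was ucr-2.1, a core protein of complex III. The genes that fell were atp-2 and atp-1, the beta and alpha subunits of the ATP synthase, isp-1, the Rieske protein of complex III, and cox-11, a copper-handling assembly factor of complex IV. The share of members that rose, 2.17%, stood beside 2.2% of all genes, and the share that fell, 8.7%, beside 3.3%. The median log2 fold change of the members was -0.01, with 23 above 0 and 23 below, and the median of all genes was 0.05. Over all 17118 genes 9610 were above 0 and 7508 below.

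Looser criteria gave the following counts. An unadjusted p under 0.05 was found for 17 members (37.0%, against 33.9% of all genes), of which 5 were higher and 12 lower in A-class cells. Every A-class array lay above every reference array for 4 members (8.7%, against 17.1% of all genes), and below every reference array for 8 (17.4%, against 13.6%). For the other 34 the groups overlapped.

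**Figure D1:**
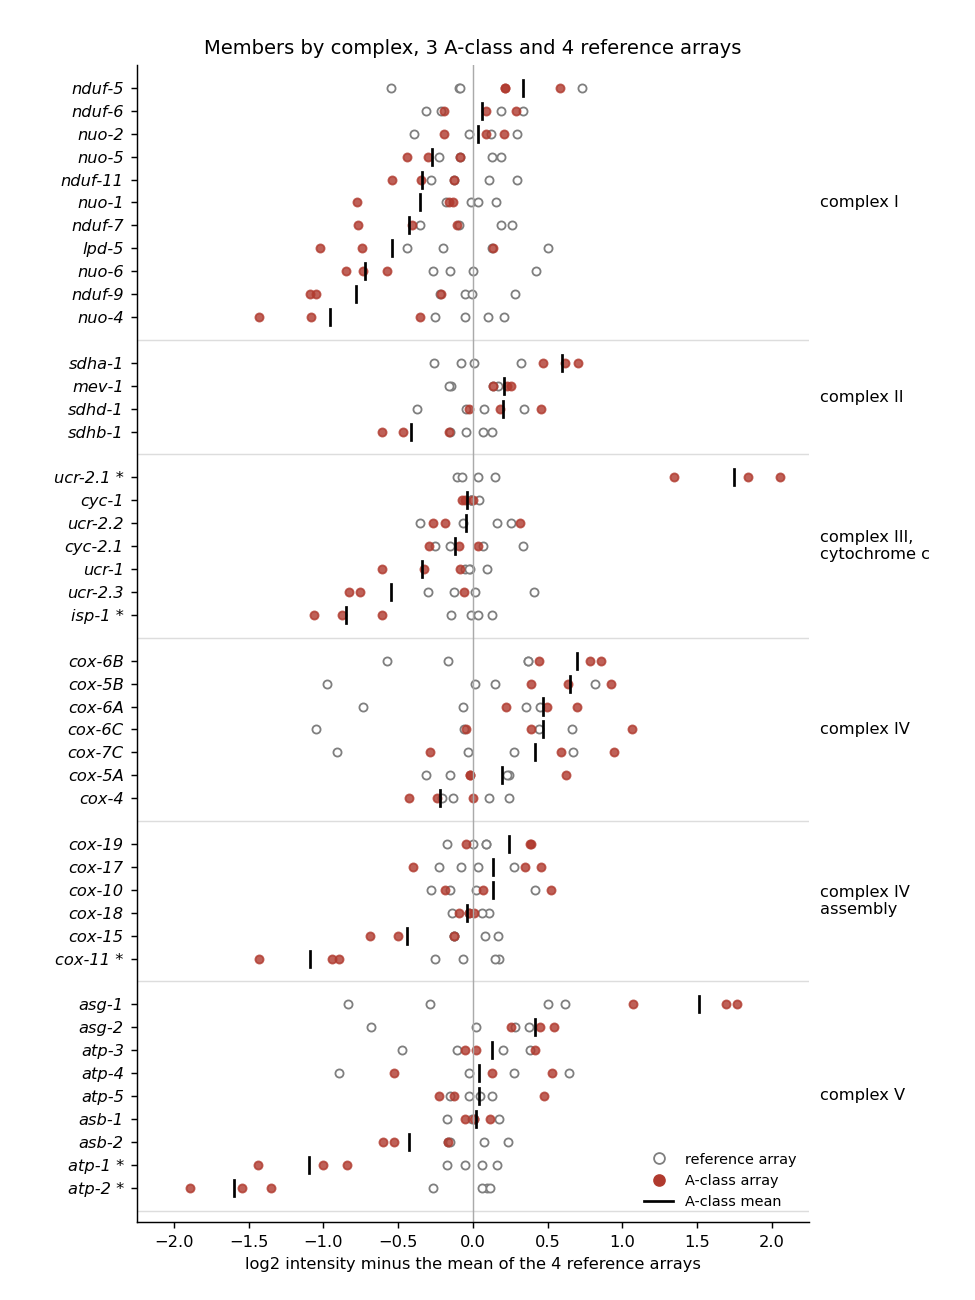
Log2 intensity of 44 of the 46 members on each array, as the difference from the mean of the 4 reference arrays (open circles, reference; filled circles, A-class; vertical bar, mean of the 3 A-class arrays), grouped by complex, with an asterisk for the 5 members that passed the test. Most filled circles lie within or near the open ones, and ucr-2.1 on the right and atp-2 on the left stand farthest from 0.

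In complex III, ucr-2.1 rose and isp-1 fell. The gene ucr-2.1 encodes a core protein 2, a structural subunit on the matrix side of the complex. Its intensity was 651, 548, 602 and 561 on the reference arrays and 2109, 2450 and 1500 on the A-class arrays. All 3 A-class arrays stood far above the reference arrays, which differed little among themselves, and the groups did not overlap. The log2 fold change was 1.75 ± 0.18 (SE, 3 and 4 arrays), or 3.36-fold, with an adjusted p of 0.000925 (limma). Against this, isp-1, which carries the iron-sulfur cluster that accepts electrons from ubiquinol, read 2315, 2109, 2170 and 1919 in the reference and 1159, 1394 and 1017 in the A-class cells. All 3 A-class arrays were below all 4 reference arrays. The log2 fold change of isp-1 was -0.85 ± 0.14 (adjusted p = 0.00583), a 1.80-fold difference that is close to the fold limit.

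By the probe sets used, the other 5 genes of complex III and cytochrome c did not pass and had log2 fold changes of -0.55 to -0.04. Cytochrome c1 (cyc-1) read 377 to 396 in the A-class cells and 392 to 407 in the reference, a difference of -0.04 with a 95% confidence interval of -0.27 to 0.19, but its other probe set passed as lower (-0.98, adjusted p = 0.00235). For ucr-1, the core protein 1, the value was -0.34 (adjusted p = 0.127), although all A-class arrays (403 to 577) were below the reference arrays (591 to 656). The electron carrier cytochrome c (cyc-2.1) has the brightest probe set of all members, at the 99.2 percentile of mean intensity on the array. Its A-class arrays (2729, 2376 and 2987) lay within the range of the reference arrays (3057, 2623, 3675 and 2445) except for the lowest, and the difference was -0.12 (95% confidence interval -0.50 to 0.26).

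The ATP synthase turns proton flow into rotation of a stalk inside a ring of alternating alpha and beta subunits, where ATP is made. Both ring subunits fell. For atp-2, the beta subunit that holds the catalytic sites, the reference arrays read 2154, 1676, 2101 and 2181 and the A-class arrays 790, 544 and 690. The A-class arrays were all far below the lowest reference array, replicate 2, which lay apart from the other reference arrays. On the log2 scale the difference was -1.60 ± 0.16, at an adjusted p of 0.001. For atp-1, the alpha subunit, the reference arrays read 723, 574, 622 and 675 and the A-class arrays 323, 360 and 238, again without overlap. Its log2 fold change was -1.09 ± 0.17 (adjusted p = 0.00414).

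The remaining 7 genes of complex V did not pass, and their median log2 fold change was 0.04, from -0.43 to 1.51. The one that stood apart was asg-1, a subunit g of the membrane part, which read 166, 96.2, 179 and 65.7 in the reference and 246, 399 and 380 in the A-class cells. All A-class arrays were higher, but the reference arrays differed widely among themselves, and the difference of 1.51 ± 0.36 on the log2 scale missed the threshold at an adjusted p of 0.0239. Its second probe set gave 1.4 (adjusted p = 0.0254). The subunits atp-3 (OSCP), atp-4 (coupling factor 6) and atp-5 (subunit d) had log2 fold changes of 0.13, 0.04 and 0.04 by the probe sets used. For atp-5 this depended on the probe set: another read 1260 ± 261 (SD, 4 reference arrays) and 525 ± 44.6 (3 A-class arrays) and passed as lower (-1.24 ± 0.18, adjusted p = 0.00326), and the third gave -1.03 (adjusted p = 0.0164).

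**Figure D2:**
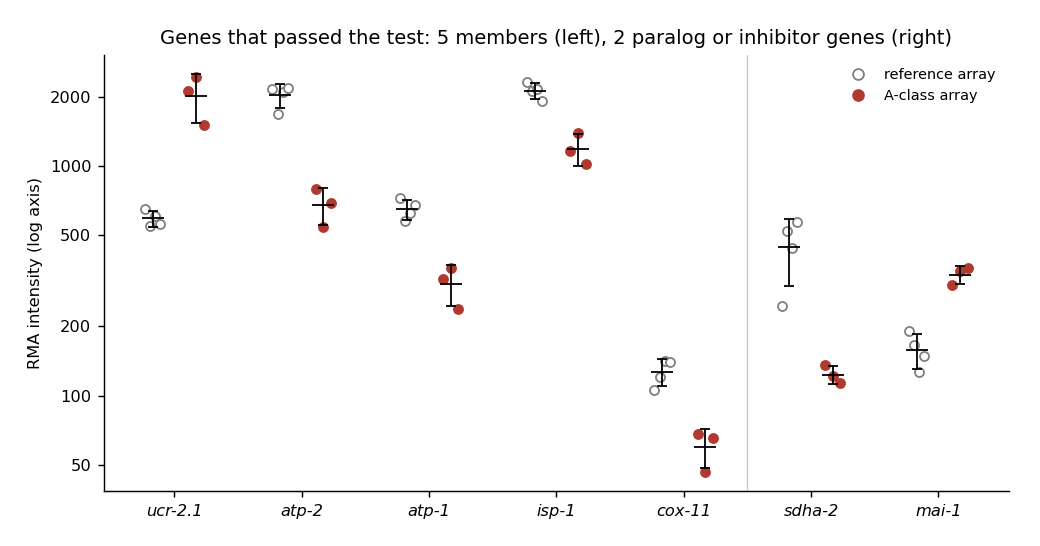
Deposited intensity on a log axis for the 5 members that passed the test (left of the line) and for sdha-2 and mai-1, related genes outside the rule (right). Points are arrays, bars the mean and SD of a group, and for each gene the A-class arrays (filled) and the reference arrays (open) do not overlap.

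Complex IV, cytochrome c oxidase, is where electrons reach oxygen. Of its 7 subunits 0 passed the test in limma or in SAM and 1 had an unadjusted p under 0.05 (14.3%, against 33.9% of all genes). The median log2 fold change was 0.47, from -0.22 for cox-4 to 0.69 for cox-6B. For cox-6B the reference arrays read 730, 503, 730 and 380 and the A-class arrays 766, 1025 and 974. The A-class arrays were all higher, replicate 1 by little, and cox-6B differed by 0.69 ± 0.25 on the log2 scale (adjusted p = 0.0869). For cox-5B the reference arrays read 1091, 994, 1732 and 501 and the A-class arrays 1287, 1866 and 1530, so the groups overlapped (0.65 ± 0.37, adjusted p = 0.244). For cox-6A the probe set used gave 0.47 with overlap, and the others gave 0.74 and 0.73 without overlap (adjusted p = 0.0936 and 0.0933). For cox-5A the probe set used gave 0.20 and the other -0.15.

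For all 7 subunits, replicate 4 was the lowest of the reference arrays, replicate 1 the lowest of the A-class arrays (tied with replicate 3 for cox-5A) and replicate 2 the highest of the A-class arrays. Over all genes these 3 positions occurred together for 8.35%, and outside complex IV for 7 members: asg-1, atp-4, the dim cox-19, mev-1, nduf-5, nduf-6 and sdhd-1. The median of the 7 subunits, relative to the reference mean, was 0.27, -0.06, 0.45 and -0.74 on reference replicates 1 to 4 and -0.02, 0.86 and 0.49 on A-class replicates 1 to 3. The spread within the reference was therefore wider than the difference between the groups. The same medians over all genes stayed between -0.01 and 0.05. The median log2 fold change of complex IV was 0.12 without reference replicate 4, 0.17 without A-class replicate 2 and 0.73 without A-class replicate 1. Reference replicate 4 was also the one reference array hybridized on another day than the rest, and the part of this in the pattern was not tested.

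**Figure D3:**
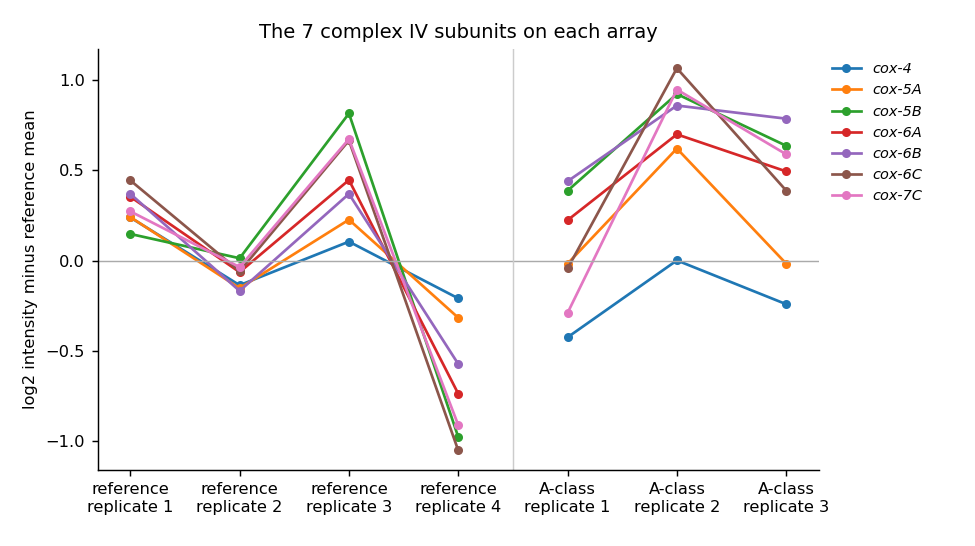
Log2 intensity of the 7 complex IV subunits on each array, as the difference from a gene's reference mean (0), with lines joining the arrays of a group, which have no order. All 7 lines drop at reference replicate 4, where the median is -0.74, and peak among the A-class arrays at replicate 2, where it is 0.86.

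The 6 assembly factors of complex IV did not share this pattern, other than cox-19. Of these, cox-11, which is needed to insert copper into the catalytic subunit, fell: it read 106, 120, 142 and 140 in the reference and 67.7, 46.7 and 65.5 in the A-class cells. The groups did not overlap, and cox-11 differed by -1.09 ± 0.17 on the log2 scale (adjusted p = 0.00527). The heme A synthase cox-15 had a value of -0.44 (adjusted p = 0.0941), with 1 A-class array equal to the lowest reference arrays. The farnesyltransferase cox-10 (0.13), the copper chaperone cox-17 (0.13) and the insertion factor cox-18 (-0.04) had 95% confidence intervals that included 0. The lowest mean intensity of the members was that of cox-19, at the 4.6 percentile of the array, with 16.2 to 19.3 in the reference and 17.6 to 23.9 in the A-class cells, a dim signal.

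In complex I, the entry point for NADH, 0 of 13 members passed in limma or SAM. An unadjusted p under 0.05 was found for 4 (30.8%, against 33.9% of all genes), 1 higher and 3 lower. The median log2 fold change was -0.34, with 9 of 13 below 0, beside 7508 of 17118 over all genes. The 6 core subunits, which as a set carry the flavin, iron-sulfur clusters and the quinone site, had a median of -0.21 and a range of -0.43 to 0.42. The 7 accessory subunits had a median of -0.54, and the members with the lowest values were among them. The accessory subunit nuo-4 (NDUFA10) read 713, 909, 980 and 819 in the reference and 664, 315 and 401 in the A-class cells. The A-class arrays were all lower, replicate 1 by little, and the difference of -0.96 ± 0.25 on the log2 scale missed the threshold (adjusted p = 0.0313). Without A-class replicate 1 it passed (-1.26, adjusted p = 0.00871). A second probe set of nuo-4, however, read 584 ± 53.2 in the A-class cells and 638 ± 79.6 in the reference (-0.12, adjusted p = 0.549).

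The accessory subunit nuo-6 (NDUFB4) read 410, 254, 306 and 275 in the reference and 170, 184 and 205 in the A-class cells, without overlap (-0.72 ± 0.18, adjusted p = 0.0274). For nduf-9 (NDUFA9) the value was -0.78 ± 0.23 (adjusted p = 0.0496), with A-class replicate 1 (286) above the lowest reference array (285), and a second probe set of nduf-9 gave -0.08 (adjusted p = 0.6). For lpd-5 (NDUFS4) the spread was wide in both groups, from 443 to 851 in the reference and from 296 to 658 in the A-class cells.

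In complex II, succinate dehydrogenase, the 4 subunits did not move together. None passed in limma or SAM (0 of 4), and 2 had an unadjusted p under 0.05 (50%, against 33.9% of all genes). The flavoprotein sdha-1, which oxidizes succinate, read 283, 189, 214 and 227 in the reference and 312, 346 and 367 in the A-class cells. All A-class arrays were higher (0.59 ± 0.15, adjusted p = 0.0334), and the second, dimmer probe set gave 0.35 (adjusted p = 0.128). Its partner sdhb-1, the iron-sulfur subunit, read 627, 555, 603 and 517 in the reference and 514, 377 and 415 in the A-class cells, and was lower in all 3, in replicate 1 by little (-0.41 ± 0.14, adjusted p = 0.0807). The second probe set of sdhb-1 gave -0.15 (adjusted p = 0.565), with overlap. The membrane anchors mev-1 (cytochrome b) and sdhd-1 had log2 fold changes of 0.21 and 0.20, with overlap between the groups.

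Several members have a paralog that encodes the same subunit. To ask whether the paralogs of a pair differed in their change, the log2 ratio of the 2 probe sets was taken on each array and compared between the groups with an exact permutation test, two-sided, for 7 pairs. With 3 arrays against 4 this test cannot give a p below 0.0571, so no pair could reach 0.05. The 5 pairs at that p had 0.0799 after adjustment over the pairs. The ratio itself depends on the probes, and its difference between the groups is what is read here. The ratio of ucr-2.1 over ucr-2.2 was 2.43, 2.41, 2.23 and 2.73 in the reference and 3.98, 4.69 and 4.06 in the A-class cells. The groups did not overlap, and the difference was 1.79 (exact p = 0.0571). Over ucr-2.3 the difference was 2.3 (exact p = 0.0571), again without overlap. The core protein 2 genes ucr-2.2 and ucr-2.3 themselves had log2 fold changes of -0.04 (95% confidence interval -0.49 to 0.41) and -0.55 (-1.08 to -0.02). A second, brighter probe set of ucr-2.2, not used in the ratios, read 307 in the A-class cells and 274 in the reference (0.18, adjusted p = 0.545).

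The ratio of sdha-1 over sdha-2 was 0.2, -1.5, -1.0 and -1.3 in the reference and 1.2, 1.5 and 1.7 in the A-class cells. Reference replicate 1 was nearest to the A-class arrays, the groups did not overlap, and the difference was 2.37 (exact p = 0.0571). The second flavoprotein gene sdha-2, which lies outside the rule for members, read 245, 519, 439 and 568 in the reference and 135, 122 and 113 in the A-class cells. It fell by 1.78 ± 0.27 on the log2 scale (adjusted p = 0.0044), a call kept without reference replicate 1 and lost without any other single array (adjusted p up to 0.0219).

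For the subunit g genes asg-1 over asg-2, the ratio was -1.75, -2.27, -1.73 and -2.12 in the reference and -1.16, -0.65 and -0.81 in the A-class cells, a difference of 1.09 (exact p = 0.0571). The difference was 0.45 for asb-1 over asb-2, without overlap and with the same exact p of 0.0571. Of the subunit b genes, asb-1 is known for expression in the germ line and asb-2 in the soma. The level of asb-1 was 225 to 252 in the A-class arrays and 207 to 263 in the reference (0.02, 95% confidence interval -0.25 to 0.30), beside the summed germ line markers given above. For asb-2 the value was -0.43 (-0.79 to -0.07, adjusted p = 0.0952). Between ucr-2.2 and ucr-2.3 the ratio overlapped (0.51, exact p = 0.229), and the difference was 0.18 to 0.82 without single arrays. The ratio of cyc-2.1 over cyc-2.2 also overlapped (-0.12, exact p = 0.571), and cyc-2.2 read 24.1 to 24.5 on every array, at the 9.7 percentile, so that the ratio moved with cyc-2.1.

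**Figure D4:**
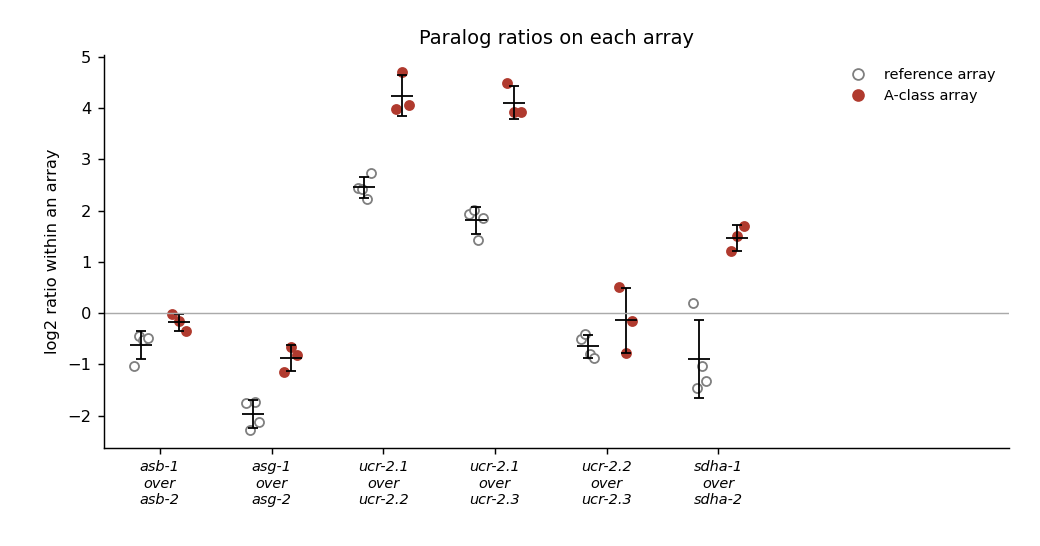
Log2 ratio of the intensities of 2 paralogs on each array (open circles, 4 reference arrays; filled, 3 A-class arrays; bars, mean and SD) for the 6 pairs other than cyc-2.1 and cyc-2.2. The groups do not overlap for 5 of the pairs, with the widest shifts for sdha-1 over sdha-2 (2.37) and ucr-2.1 over ucr-2.3 (2.3), and overlap for ucr-2.2 over ucr-2.3.

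In all, 64 probe sets belonged to the 46 members, and 16 genes had more than 1. The probe sets of a gene differed in log2 fold change by 0.29 at the median and by up to 1.41, and for 5 genes they had opposite signs. Besides atp-5, the call differed for isp-1, whose second probe set had the same direction (-0.71, adjusted p = 0.0144), and for cyc-1. The probe set of cyc-1 that was not used read 369 ± 40.9 in the reference and 186 ± 13.5 in the A-class cells. For nuo-5 (NDUFS1) the probe sets gave -0.28 (adjusted p = 0.221) and -1.69 (adjusted p = 0.0275). Counting a gene when any of its probe sets passed gave 1 member that rose and 6 that fell (2.17% and 13%), where 2.49% and 3.97% of all genes rose or fell by the same rule. Which of the probe sets follows the transcript was not tested. Of the 5 members that passed, isp-1 had 2 probe sets and ucr-2.1, atp-1, atp-2 and cox-11 had 1 each. The probe sets of atp-1, atp-2 and isp-1 carry the suffix _s_at, for probes that match more than 1 transcript.

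**Figure D5:**
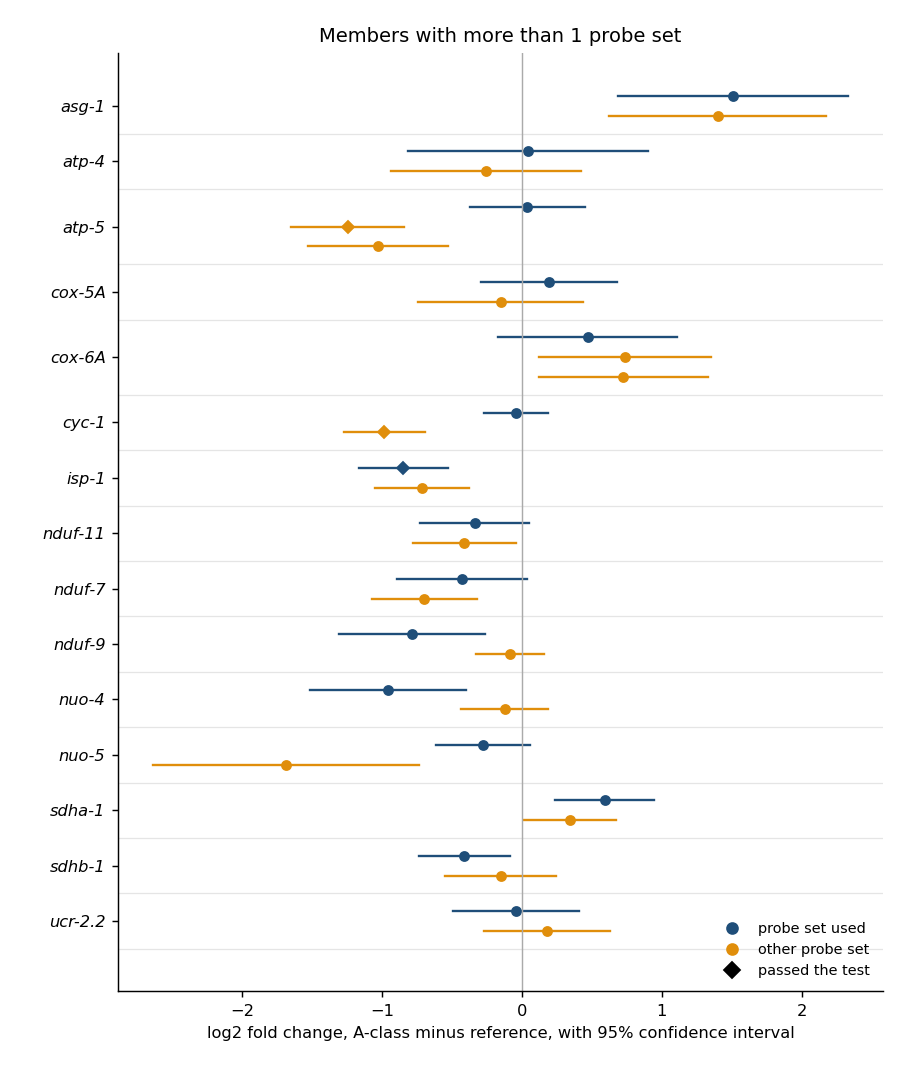
Log2 fold change of every probe set of 15 members with more than 1, with its 95% confidence interval (dark, the probe set used; light, the others; diamonds, passed the test). The interval of the probe set used lies apart from the others for atp-5, cyc-1 and nuo-5 and overlaps with them for the other 12 genes.

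The other mitochondrial genes were taken from 12 lists by function, with 172 genes in all. Of these 1 rose (0.581%, against 2.2% of all genes), 5 fell (2.91%, against 3.3%) and 166 did not pass. In SAM 1 rose and 11 fell, where 3.01% and 4.67% of all genes passed. On the log2 scale their median was -0.12. The gene that rose was mai-1, a homolog of the mammalian inhibitor of the ATP synthase, which read 190, 167, 126 and 149 in the reference and 303, 347 and 358 in the A-class cells. The groups did not overlap (1.10 ± 0.16, adjusted p = 0.00343). Among the 4 paralogs and inhibitors listed, 1 gene rose, mai-1 (25%, beside 2.2% of all genes), and 1 fell, sdha-2 (25%, beside 3.3%). On the same list mai-2 had a value of 0.65 ± 0.22, with overlap, and did not pass in limma (adjusted p = 0.0788). Of 21 complex I subunits known by newer names, ndub-10 (NDUFB10) fell (-1.17 ± 0.22, adjusted p = 0.00992). That is 4.76% of the list, beside 3.3% of all genes, and the median of the list was -0.20.

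Of 59 mitochondrial ribosomal proteins, 0 rose and 2 fell (3.39%, beside 3.3% of all genes). Values below 0 were found for 44 of 59, beside 7508 of 17118 over all genes, and the median was -0.25. An unadjusted p under 0.05 was found for 24 of them (40.7%, beside 33.9% of all genes), 3 on the higher side and 21 on the lower. The genes that fell were mrps-18B, at 261, 255, 256 and 332 in the reference and 106, 143 and 109 in the A-class cells (-1.22 ± 0.16, adjusted p = 0.00229), and mrps-9 (-0.93 ± 0.17, adjusted p = 0.008). Of 7 genes listed as ATP exporters and mitochondrial carriers, all had values below 0, beside 7508 of 17118 over all genes. Of these, misc-1, a carrier of organic acids, fell (-0.90 ± 0.12, adjusted p = 0.00266), which is 14.3% of the list beside 3.3% of all genes. For ubiquinone synthesis, which makes the electron carrier between complexes I or II and III, 0 of 7 genes passed and the median was 0.37. An unadjusted p under 0.05 was found for 3 (42.9%, beside 33.9% of all genes).

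For the other lists 0 genes passed in limma. These were 14 assembly factors outside the rule (median -0.34, 6 at an unadjusted p under 0.05, 1 lower in SAM), 7 genes of the pyruvate dehydrogenase complex and its supply (0.04, 0 at an unadjusted p under 0.05) and 5 genes of mitochondrial DNA maintenance (-0.06, 0). They also included 15 import genes (0.06, 5), 9 chaperones and proteases (-0.03, 5), 11 antioxidant enzymes (0.05, 3) and 13 genes of mitochondrial dynamics and transport (0.16, 4), with 0 in SAM for each of these. In this order an unadjusted p under 0.05 was found for 42.9%, 0%, 0%, 33.3%, 55.6%, 27.3% and 30.8%, against 33.9% of all genes. Of the genes outside the rule that passed, mai-1 lost its call without A-class replicates 1, 2 or 3 or reference replicates 2 or 4 (adjusted p up to 0.017), misc-1 without A-class replicates 1 or 3 or reference replicate 2 (up to 0.0133), and mrps-18B without A-class replicates 1 or 3 (up to 0.012). The call of mrps-9 was kept without reference replicate 1 and lost without any other single array (up to 0.033). That of ndub-10 was kept without reference replicate 3, which lay above the other reference arrays, and lost without any other (up to 0.0322). With a block for the fluidics module 0 of the 172 genes passed in limma.

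How far the 5 calls among the members rest on single arrays differed between them. The calls of ucr-2.1 and atp-2 were kept without any single array (adjusted p up to 0.00646 and 0.00615). The calls of atp-1 and isp-1 were kept without A-class replicate 2 and lost without any other single array (adjusted p up to 0.0145 and 0.0238), and that of cox-11 was kept without reference replicate 1 and lost without any other (up to 0.0195). The arrays were run on 3 fluidics modules, of which 1 held 2 arrays of each group and another held 1 of each. With the module as a block the 5 genes had adjusted p-values of 0.0133 (ucr-2.1), 0.0142 (atp-2), 0.0301 (atp-1), 0.0344 (cox-11) and 0.0395 (isp-1), and none passed. Within these 2 modules the log2 differences were 1.67 and 1.95 for ucr-2.1, -1.82 and -1.09 for atp-2, -1.25 and -0.83 for atp-1, -0.82 and -0.86 for isp-1, and -1.13 and -0.83 for cox-11. Chip lot and hybridization day each held arrays of 1 group and cannot be told apart from cell type.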

How the data were processed

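Each array has 1 deposited intensity for every probe set, which the authors computed with RMA and which is not on a log scale. Which version of RMA was run, and on which arrays at once, is not given in the sources used here. RMA intensities are relative to each probe set, so sums over markers, the brightest and dimmest member and the ratio of paralogs describe probe sets, not amounts of transcript. The number of arrays limits the precision. The labels call the arrays biological replicates. No column was without a sample (0 columns). Instrument records deposited with the arrays were used for batches.

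Log2 of the 22548 probe sets was compared between the 3 A-class and 4 reference arrays with limma (version 3.58.1, R 4.3.3, lmFit and eBayes, no covariates) and Benjamini-Hochberg adjustment over all probe sets. The threshold was an adjusted p of 0.01 and 1.7-fold. SAM, run at a 1% false discovery rate over the 35 splits of the arrays, was an alternative. Both tests were first tried on simulated data with known changes. Other steps used Python 3.11.15, pandas 2.3.3 and scipy 1.17.1.

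The platform annotation gives 20766 probe sets 1 symbol, 887 several and 895 none. Each gene was represented by 1 probe set (_at before _s_at before others, then the brightest). The genes named by rule were every member that passed, the highest and lowest log2 fold change of each complex, the brightest and dimmest member, the paralog pairs and the genes of the wider lists that passed (up to 4 in each direction). A pair of complex I genes counted among the members is not reported here by name. Other members named were chosen after their values were seen. The members, lists and tests were chosen with earlier results of these data known. Alternatives changed the test, thresholds, normalization, probe set choice, batches and arrays.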

Additional observations from a re-analysis of the deposited data

Results flagged for a closer look

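In the group of 4 reference arrays, 25 named genes were checked for a single array far from the others (Dixon's ratio of the gap to the nearest array over the whole range, on the log2 scale, at its 95% critical value). Chance alone flags about 1 in 20 groups, and 3 genes were flagged. For atp-2, reference replicate 2 (1676) lay below the others, with a ratio of 0.859. For ndub-10, reference replicate 3 (867) lay above the others (0.929). For mrps-18B, reference replicate 4 (332) lay above the others (0.91). When single arrays were left out, the call of atp-2 was kept each time, that of mrps-18B was lost without A-class replicate 1 or 3, and that of ndub-10 was lost each time except without reference replicate 3 (limma, adjusted p = 0.0061). The A-class group of 3 arrays is too small for this check.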

How the results depend on the processing

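The median log2 fold change of the members stayed between -0.07 and 0.06 in all 21 alternatives. Of the members, 1 rose and 4 fell, and both counts were the same in SAM, limma with trend and robust variance, at 1.5-fold, without a fold limit, without the dimmest 30%, after another quantile normalization or median centering and with the brightest probe set of each gene. The share of all genes that fell was not the same, at 3.3% in the main setting, 4.67% in SAM and 5.37% without the dimmest 30%. The share of all genes that rose was 2.2%, 3.01% and 3.4%. The number that rose was 0 with a block for the fluidics module, 0 with the replicate block and 2 at an adjusted p under 0.05. In these settings 0.426%, 0.403% and 4% of all genes rose. The number that fell was 0 with the module block, 1 with the hybridization day as a random block, 1 with the replicate block, 1 with only _at probe sets (27 members followed), 3 with log2 of the value plus 50, 6 at an adjusted p under 0.05 and 1 to 3 without single arrays. In the same order 0.467%, 1.06%, 0.456%, 2.62%, 1.47%, 6.54% and 1% to 3.17% of all genes fell. The 172 genes of the wider lists gave 0 that rose with the module, day or replicate block, 2 at 1.5-fold or without a fold limit, 3 at an adjusted p under 0.05 and 0 to 1 without single arrays. They gave 0 that fell with the module or replicate block, 2 with the day block, 11 in SAM, 3 with trend and robust variance, 1 with log2 of the value plus 50, 12 at an adjusted p under 0.05 and 0 to 5 without single arrays. With only _at probe sets the median was -0.14 for complex I and 0.40 for complex II. That of complex V was -0.18 to 0.12 without single arrays. The difference of asg-1 over asg-2 was 0.80 with 50 added. Shared replicate numbers do not pair the samples (correlations of deviations of same-numbered arrays 0.03, -0.12 and -0.05), so the replicate block on 6 arrays, which kept atp-2, is given here once. Over all genes the module block left 73 that rose and 80 that fell, the replicate block 69 and 78, and the day block 141 and 181, against 377 and 565. No named gene that passed in any setting changed direction. The cause of these changes was not tested. The chip lot as a random block was not run, because each lot held 1 group. The alternative that counts any probe set of a gene was chosen after seeing the data. Arrays of 3 against 4, dim probe sets such as cox-19 and cyc-2.2, and probe sets shared between transcripts limit what can be read.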
